A study of Mus musculus with 6 samples.

Results

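Cytosolic ribosomal proteins were the genes whose symbol on the array was *Rpl* or *Rps* followed by a number, with or without one of the endings a, x, l and l1, together with *Rplp0*, *Rplp1*, *Rplp2* and *Rpsa*. The rule used names and no measured value. It took 61 of the 18138 gene symbols and 80 of the 25697 probes. Of these, 35 genes with 48 probes belonged to the large subunit and 26 genes with 32 probes to the small subunit. Of the 80 probes, 63 probes of 52 genes had a detection p-value under 0.01 on at least 3 of the 6 arrays and were tested, among 10734 probes tested in all.

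Total RNA came from whole livers of male FVB/N pups, labelled FVB, at postnatal day 6. In the 3 hSRY-ON pups, a human *SRY* transgene (*Signalox-hSRY*, a single copy at the H11 locus on chromosome 11) had been activated by *Ddx4-Cre* recombinase carried over from the mother's oocyte, so that the ubiquitous CAG promoter drove FLAG-tagged human SRY and EGFP in the body at large. The hSRY-ON pups used for arrays were chosen to lack the *Ddx4-Cre* transgene itself. The 3 hSRY-OFF pups were controls, a name the study's methods give to carriers of *Signalox-hSRY* without recombination. The methods also name littermates without *Signalox-hSRY*, some with *Ddx4-Cre*, as controls, and the labels do not say more of the genotype than hSRY-OFF. The transgene was inserted in 1 line at 1 site, the array had no probe for it, and each array stood for 1 pup. Of the 8 hepatocyte marker genes listed, 7 passed the detection filter, among them *Ttr* and *Apoa1*, and *Fgb* was detected on 1 of 6 arrays.

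A ribosome is built from a large subunit, which forms peptide bonds, and a small subunit, which reads the messenger RNA. Each holds ribosomal RNA and one copy of most of its proteins, so their messages are usually made in proportion and are abundant in tissues that secrete protein, such as the liver. Many of these messages start with an uninterrupted stretch of pyrimidines, the terminal oligopyrimidine (TOP) tract, through which mTOR and LARP1 set how strongly they are translated and how stable they are. RNA polymerase I makes the large precursor of ribosomal RNA, and a set of assembly factors joins RNA and protein in the nucleolus.

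The starts of these genes are shown because many of their messages, and those of a further list described below, are known for a TOP tract. The starts of that further list were not examined. Of the 61 genes, 50 matched the RefSeq promoter windows of assembly GRCm38.p6. A run of at least 7 pyrimidines (C or T, on the gene's strand) lay within 20 bases of the annotated start in 30 of the 50 genes (60.0%), against 7430 of all 27025 genes with a window (27.5%). The letters CCGGAA, on either strand of the 300-base window, occurred in 28 of the 50 genes (56.0%) and in 16.7% of all genes, and the letters AAGATGGC in 4 of the 50 and in 3.19% of all genes. These matches are a description of letters and not of factor binding, and a pyrimidine run on either side of the annotated start need not begin the message. The lines below give 15 bases before and 15 bases after an annotated start of 7 genes, 5′ to 3′ on the gene's strand, with the longest pyrimidine run of at least 7 bases in capitals. The genes were picked to show probes that rose with a run (*Rpl12*, *Rpl39*, *Rpl38*, *Rps6*, *Rps9*), a probe that rose without one (*Rps3*) and a probe that did not pass the test although a run was there (*Rps27l*, at the first of its 2 annotated starts, the second having no such run). These picks do not reflect the share of runs among the genes that rose, which is given further below.

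Rpl12, chr2:32961697-32961726, plus strand: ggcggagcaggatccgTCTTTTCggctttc
Rpl39, chrX:37085208-37085237, minus strand: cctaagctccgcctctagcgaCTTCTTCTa
Rpl38, chr11:114668565-114668594, plus strand: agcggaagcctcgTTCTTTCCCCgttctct
Rps6, chr4:86857353-86857382, minus strand: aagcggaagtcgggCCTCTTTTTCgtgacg
Rps9, chr7:3704026-3704055, plus strand: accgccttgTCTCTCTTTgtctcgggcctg
Rps3, chr7:99483695-99483724, minus strand: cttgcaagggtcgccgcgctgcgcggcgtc
Rps27l, chr9:66946071-66946100, plus strand: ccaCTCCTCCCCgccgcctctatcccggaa

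Ribosomal protein messages of both subunits were higher in the hSRY-ON livers, and none passed the test in the other direction. Of the 63 tested probes, 31 rose (49.2%) and 0 fell at an adjusted p under 0.05 (limma), where 15.8% of all tested probes rose and 17.3% fell (33.1% in either direction). The median log2 difference, hSRY-ON minus hSRY-OFF, was 0.40 (1.32-fold) with an interquartile range of 0.20 to 0.61, and the median of all tested probes was 0.02 with an interquartile range of -0.33 to 0.35. Counted by gene, 30 of the 52 genes had at least 1 probe that rose, and in 23 every tested probe rose. The difference was above 0 for 59 of the 63 probes, against 51.4% of all tested probes. All 3 hSRY-ON values lay above all 3 hSRY-OFF values for 47 probes and below them for 1, against 25.4% and 24.6% of all tested probes, and the groups overlapped for the other 15. In whole tissue, a change in the share of a cell type and a change in the RNA made per cell cannot be told apart.

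The count depended on scaling and on the control arrays. With median scaling 16 probes rose (11.2% of all tested probes rose there) and with trimmed mean scaling 15 (10.8%), and without hSRY-OFF replicate 1 or replicate 2 it was 14 in both cases (8.32% and 9.08%). All of these probes were among the 31, 0 fell in those fits, and the median stayed between 0.31 and 0.43. A set of 9 probes rose in each of the 22 settings with single probes that tested them, among them those of *Rpl12*, *Rpl19*, *Rpl24*, *Rpl39*, *Rps2* and *Rps3a* and both probes of *Rps3*. Other named rises lost their call in part of the settings. Those of *Rpl3*, *Rpl31*, *Rps6* and *Rps19* did so under median and trimmed mean scaling and without hSRY-OFF replicate 1 or 2, that of *Rpl23* under both scalings and without hSRY-OFF replicate 1, and those of *Rpl13a*, *Rpl29*, *Rpl38*, *Rplp0* and *Rps24* without hSRY-OFF replicate 1 or 2. The *Rps19* call was also lost without hSRY-OFF replicate 3 and hSRY-ON replicates 1 and 2, the *Rpl31* call without hSRY-ON replicate 2 and the *Rps9* call under trimmed mean scaling. Of the 22 settings, *Rpl34* was called in 9, *Rps16* and *Rps26* in 12, *Rps13* in 15 and *Rpl36a* in 16. *Rpl18* and *Rpl28* were called in 17 of them, and *Rpl7a*, *Rps10* and *Rps15* in 19.

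On single arrays, the median of the 63 probes relative to their hSRY-OFF means was -0.01, -0.02 and 0.04 in the hSRY-OFF replicates and 0.35, 0.47 and 0.37 in the hSRY-ON replicates. The hSRY-ON arrays all lay above the hSRY-OFF arrays, and the pooled SD within the groups was 0.049. Above every hSRY-OFF value lay 50 of the 63 probes on the array of hSRY-ON replicate 1, 55 on that of replicate 2 and 56 on that of replicate 3. The share of all tested probes was not computed for single arrays, so these counts only describe the arrays. The SD within a group had a median over these probes of 0.06 (hSRY-OFF) and 0.09 (hSRY-ON), against 0.14 and 0.21 over all tested probes. These probes were also brighter, with a median level of 13.34 against 8.3 on the log2 scale. The SD at equal brightness was not compared.

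**Figure D1:**
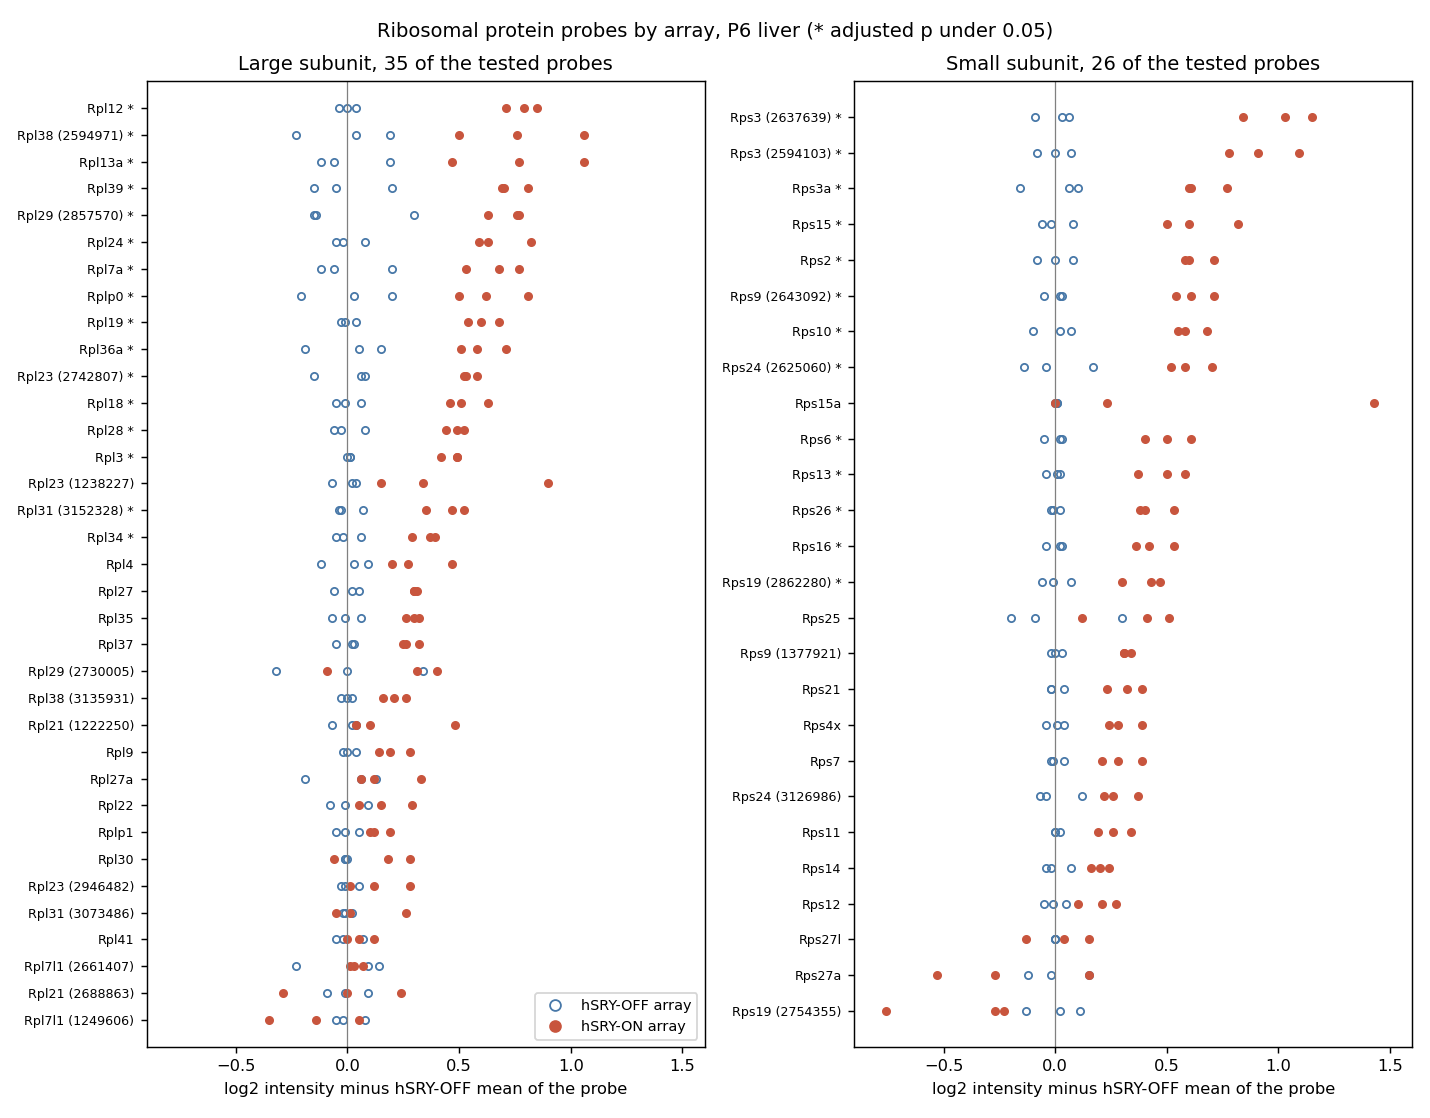
Each row is 1 of 61 tested probes (35 of the large and 26 of the small subunit), ordered by difference, with the 3 hSRY-OFF arrays as open blue and the 3 hSRY-ON arrays as filled red circles. The x axis is the log2 intensity minus the hSRY-OFF mean of the probe, and a star marks an adjusted p under 0.05. In 45 rows every red circle lies right of every blue one, and in 1 row, the dimmer *Rps19* probe, every red circle lies left.

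In the large subunit 16 of 35 tested probes rose (45.7%, against 15.8% of all tested probes) and 0 fell (against 17.3%), with a median of 0.31 (1.24-fold) and a range of -0.15 to 0.79. In the small subunit 15 of 28 rose (53.6%, against the same 15.8%) and 0 fell, with a median of 0.44 (1.35-fold) and a lowest value of -0.42. The array medians followed the same order, 0.30, 0.44 and 0.32 for the large and 0.42, 0.49 and 0.37 for the small subunit in the hSRY-ON replicates. When the fit was restricted to probes with a mean log2 intensity of at least 10, the medians were 0.40 for both subunits. The ranges overlapped throughout, and the difference between the subunits was not tested.

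Brightness also ran with the size of the difference. Among the 29 tested ribosomal protein probes with a mean log2 intensity of 10 to 14, 19 rose and the median was 0.48 (18.0% of all tested probes at 10 or more rose and 18.6% fell), and among the 14 dimmer probes 6 rose with a median of 0.43 (15.2% of all tested probes under 10 rose and 16.9% fell). Of the 20 probes at 14 or more, 6 rose with a median of 0.29, although the hSRY-ON values lay above the hSRY-OFF values for 19 of them. Of all 109 tested probes at 14 or more, 8.26% rose and 16.5% fell. The hSRY-ON values lay above the hSRY-OFF values for 38 of these 109 and below them for 32. The 89 other tested probes of that brightness had a median of -0.05, with 3 higher and 18 lower. Across the 49 ribosomal protein probes at 10 or more, level and difference had a Spearman rho of -0.34 and a Pearson r of -0.12, as a description of probes that share the same 6 arrays. The intensities of the *Rplp1* probe lay between 36557 and 43468 before normalization and the highest intensities of any probe between 44365 and 47161, and whether the scale compresses differences there was not tested.

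**Figure D2:**
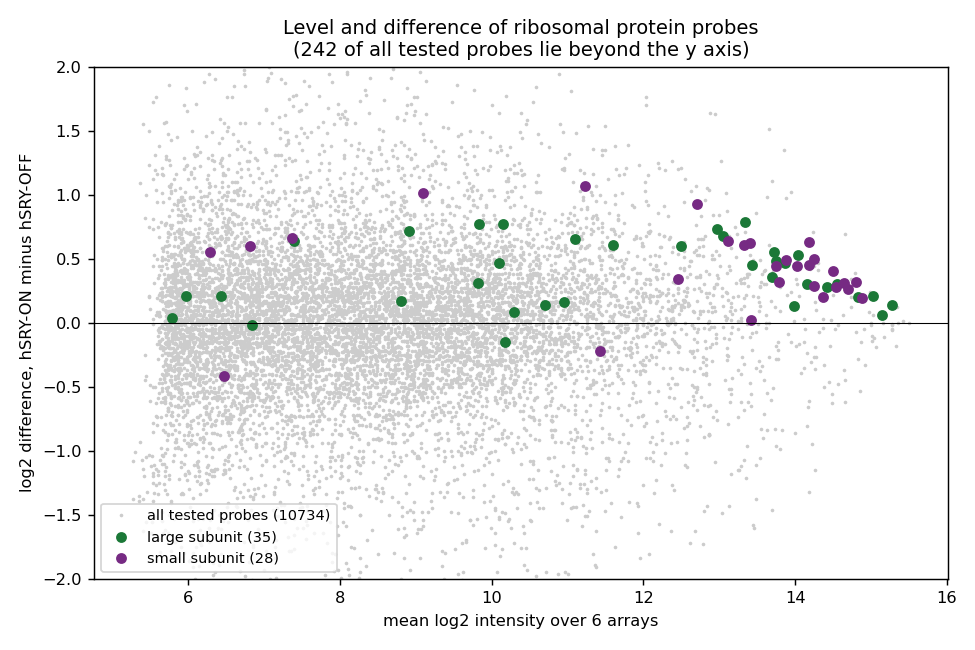
The x axis is the mean log2 intensity of a probe over the 6 arrays and the y axis its log2 difference, hSRY-ON minus hSRY-OFF, with all 10734 tested probes in grey (242 lie beyond the axis) and those of the large (35, green) and small (28, purple) subunit on top. All but 4 of the ribosomal protein probes lie above 0, and those at the bright end lie closer to it than those in the middle.

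*Rpl12* encodes a protein at the base of the stalk, the flexible arm of the large subunit that calls in elongation factors. It measured 12.99, 12.91 and 12.95 on the log2 scale in the hSRY-OFF replicates and 13.74, 13.80 and 13.66 in the hSRY-ON replicates. The groups did not overlap, and the difference of 0.79 ± 0.11 (SE) was the largest of the large subunit (1.73-fold, adjusted p = 0.00229). *Rplp0*, the stalk protein that anchors the P1 and P2 dimers, measured 7.11, 6.87 and 7.28 against 7.58, 7.89 and 7.70, a rise of 0.64 ± 0.15 (adjusted p = 0.0169). Its second probe was not well above background on any array. *Rplp1*, one of the dimer partners, measured 15.20, 15.16 and 15.26 against 15.40, 15.31 and 15.33. The hSRY-ON values were all higher, yet the difference of 0.14 did not pass the test (adjusted p = 0.348). The *Rplp2* probe, for the other partner, was not well above background on any of the 6 arrays, so the stalk could be followed in 3 of its 4 proteins.

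*Rpl39* encodes a very small protein that lines the exit tunnel of the nascent peptide. Its log2 values were 12.45, 12.55 and 12.80 in hSRY-OFF and 13.30, 13.41 and 13.29 in hSRY-ON, which did not overlap and differed by 0.73 ± 0.13 (adjusted p = 0.00632). *Rpl3*, which reaches towards the peptidyl transferase centre, had some of the tightest values, 13.63, 13.62 and 13.63 against 14.04, 14.11 and 14.11. It rose by 0.47 ± 0.11 (1.38-fold, adjusted p = 0.0148). *Rpl13a*, known also for leaving the ribosome to silence inflammatory messages after phosphorylation, measured 9.64, 9.70 and 9.95 against 10.53, 10.82 and 10.23 and rose by 0.77 ± 0.18 (adjusted p = 0.0158). *Rpl24*, whose loss gives the Belly spot and tail mouse, rose by 0.68 (adjusted p = 0.00578), and *Rpl19* by 0.61 (adjusted p = 0.00619). The other large subunit genes with a probe that rose were *Rpl7a*, *Rpl18*, *Rpl23*, *Rpl28*, *Rpl29*, *Rpl31*, *Rpl34*, *Rpl36a* and *Rpl38*, by 0.36 (*Rpl34*) to 0.77 (*Rpl38*). *Rpl41*, the smallest protein of the ribosome, measured 15.06, 15.09 and 15.18 against 15.11, 15.16 and 15.23, overlapping values that differed by 0.06 (adjusted p = 0.72). *Rpl22* measured 10.79, 10.96 and 10.86 against 11.02, 10.92 and 11.16, with overlap and a difference of 0.16 (adjusted p = 0.333).

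In the small subunit, *Rps3*, at the entry of the messenger channel and also described as a DNA repair endonuclease, was measured by 2 probes. The first (ILMN_2637639) gave 8.50, 8.65 and 8.62 against 9.62, 9.74 and 9.43, a difference of 1.01 ± 0.13 (adjusted p = 0.00164). The second (ILMN_2594103) gave 12.25, 12.32 and 12.17 against 13.03, 13.34 and 13.16, a difference of 0.93 ± 0.13 (adjusted p = 0.00211). *Rps3* was the 1 gene among 10 with several tested probes in which every probe rose.

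*Rps6*, the subunit protein that S6 kinase phosphorylates downstream of mTOR, measured 14.02, 13.95 and 14.03 in hSRY-OFF and 14.50, 14.61 and 14.40 in hSRY-ON. The groups did not overlap and the rise was 0.50 ± 0.12 (adjusted p = 0.0152). *Rps14*, whose single-copy loss underlies the anaemia of the 5q- syndrome, had hSRY-ON values of 14.43, 14.47 and 14.51, all above the hSRY-OFF values of 14.25, 14.23 and 14.34, and its difference of 0.20 did not pass the test (adjusted p = 0.205). The same held for the X-linked *Rps4x* at 0.31 (adjusted p = 0.0709). *Rps2*, which sits at the messenger entry beside *Rps3*, rose by 0.63 (adjusted p = 0.0061), *Rps3a* by 0.66 (adjusted p = 0.00802) and *Rps10* by 0.61 (adjusted p = 0.00713). *Rps9*, *Rps13*, *Rps15*, *Rps16*, *Rps19*, *Rps24* and *Rps26* also had a probe that rose, by 0.40 (*Rps19*) to 0.64 (*Rps15*). Of these, *Rps19*, *Rps24* and *Rps26* are genes of Diamond-Blackfan anaemia, an inherited failure of red cell production.

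Of the 10 genes with several tested probes, 7 had a probe that rose beside one that did not. The widest gap was in *Rps19*. Probe ILMN_2862280 measured 14.29, 14.37 and 14.24 against 14.73, 14.77 and 14.60 and rose by 0.40 ± 0.11 (adjusted p = 0.0322). Probe ILMN_2754355 measured 6.55, 6.70 and 6.79 against 5.92, 6.41 and 6.45, which puts every hSRY-ON value below the hSRY-OFF values, with a difference of -0.42 ± 0.17 that did not pass the test (adjusted p = 0.0998). These probes differed by 0.82 in their log2 difference.

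*Rpl38*, known for its part in skeletal patterning and the translation of *Hox* messages, had a probe (ILMN_2594971) at 9.48, 9.21 and 9.63 against 10.20, 9.94 and 10.50. That probe rose by 0.77 ± 0.18 (adjusted p = 0.0164). Its other probe (ILMN_3135931), at 14.92, 14.94 and 14.89 against 15.08, 15.13 and 15.18, was higher in all hSRY-ON arrays by 0.21, which did not pass the test (adjusted p = 0.166). *Rpl29* had a probe with a rise of 0.72 (adjusted p = 0.0121) and one with a difference of 0.21 (adjusted p = 0.478) that was detected on 2 of 3 hSRY-OFF arrays. For *Rpl23* the 3 tested probes had differences of 0.55 (adjusted p = 0.0123), 0.47 (adjusted p = 0.108) and 0.13 (adjusted p = 0.425). *Rps9* had 0.62 (adjusted p = 0.00609) and 0.32 (adjusted p = 0.055), *Rps24* 0.60 (adjusted p = 0.0125) and 0.28 (adjusted p = 0.106), and *Rpl31* 0.45 (adjusted p = 0.0221) and 0.08 (adjusted p = 0.668). In every one of these 6 genes the probes pointed the same way and differed in size. The probes of *Rpl21* (-0.02 and 0.21) and *Rpl7l1* (0.04 and -0.15) did not pass the test. Ribosomal protein genes have many processed pseudogenes, and which copies or transcript ends a probe reads was not analysed here.

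**Figure D3:**
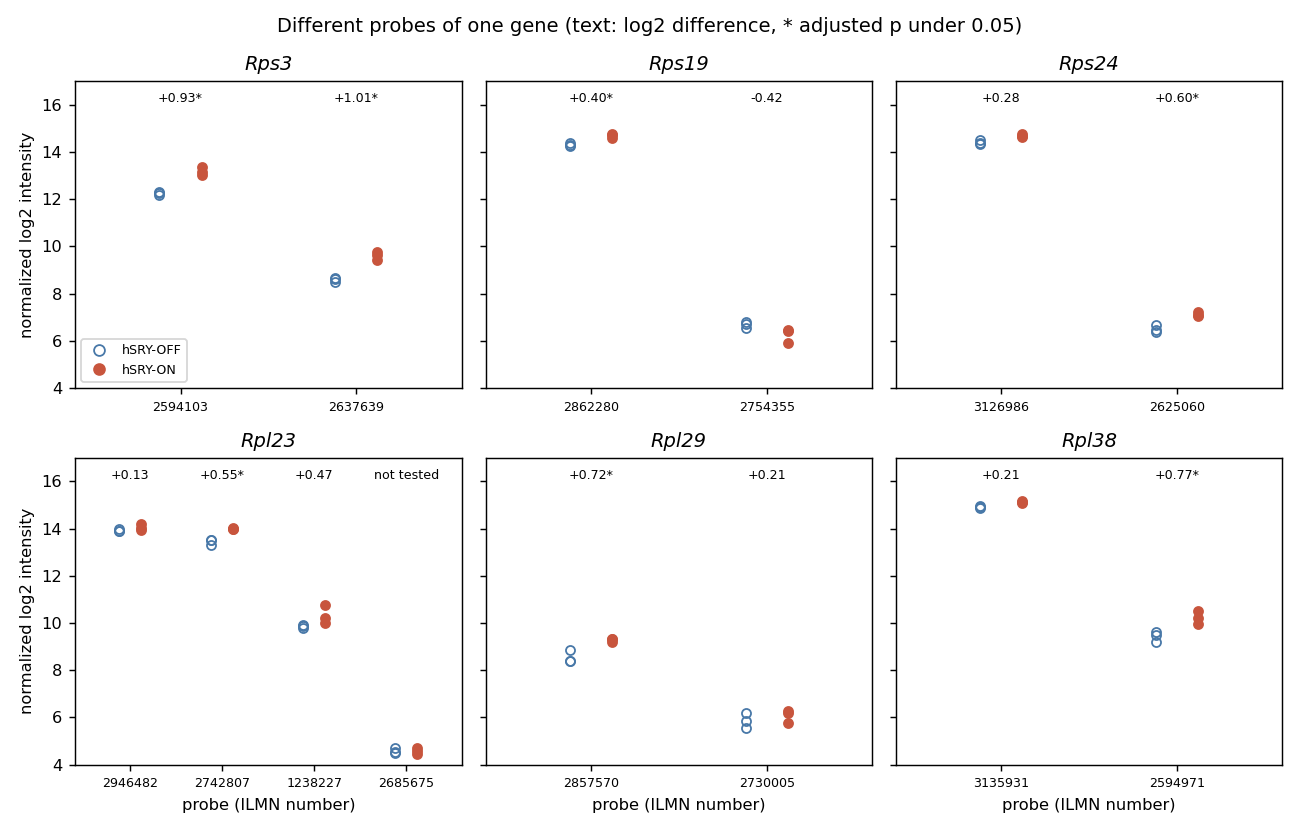
Normalized log2 intensity (y axis) of every probe (x axis, ILMN number) of 6 genes, with 3 hSRY-OFF arrays as open blue and 3 hSRY-ON arrays as filled red circles. The number above each pair is the log2 difference, with a star for an adjusted p under 0.05. Both *Rps3* probes rose, the *Rps19* probes have opposite signs (0.40 and -0.42), and in *Rps24* and *Rpl38* the dimmer probe has the larger difference (0.60 and 0.77).

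Besides the dim *Rps19* probe, 3 tested probes had a difference at or below 0, and none of them passed the test. *Rps27a* is made as a fusion of ubiquitin with a ribosomal protein. Its probe measured 11.52, 11.42 and 11.69 in hSRY-OFF and 11.01, 11.27 and 11.69 in hSRY-ON, with overlap and a difference of -0.22 ± 0.19 (adjusted p = 0.412). *Rpl7l1*, a relative of *Rpl7*, measured 10.32, 10.19 and 10.22 against 9.89, 10.10 and 10.29 at probe ILMN_1249606, with overlap and a difference of -0.15 ± 0.14 (adjusted p = 0.421). *Rpl21* probe ILMN_2688863 had -0.02 (adjusted p = 0.95).

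Genes that are relatives of core ribosomal proteins and not fixed parts of every ribosome were mostly at background or near 0. *Rps27l*, a relative of *Rps27* known as a p53 target, measured 13.41 in each hSRY-OFF replicate and 13.45, 13.28 and 13.56 in the hSRY-ON replicates. Its difference was 0.02 ± 0.12 (adjusted p = 0.916), and its sign turned to -0.13 under median scaling, -0.14 under trimmed mean scaling and -0.05 under cyclic loess. *Rpl22l1*, *Rpl39l*, which is best known from the testis, and *Rpl3l*, which is best known from striated muscle, were not well above background on any hSRY-OFF array. Apart from these relatives, the small subunit gene *Rps15a* showed a single high array. Its log2 values were 6.02, 6.02 and 6.01 in hSRY-OFF and 6.01, 6.24 and 7.44 in hSRY-ON. Its difference of 0.55 ± 0.34 therefore rested on hSRY-ON replicate 3 and did not pass the test (adjusted p = 0.255).

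Of the 17 probes that were not tested, 16 were detected on 0 arrays. They were the only probes of *Rpl14*, *Rpl17*, *Rpl6*, *Rplp2*, *Rps23*, *Rpl22l1* and *Rpl39l*, both probes of *Rpsa*, 2 of *Rpl37* and 1 each of *Rpl23*, *Rpl27a*, *Rpl4*, *Rplp0* and *Rps27a*. *Rpl14*, *Rpl17*, *Rpl6*, *Rplp2*, *Rps23* and *Rpsa* are constituents of the cytosolic ribosome, so a probe at background gives no level for them here. *Rps20*, *Rps27*, *Rpl5*, *Rpl7*, *Rpl10*, *Rpl10l*, *Rpl10a* and *Rpl11* were not analysed here.

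The probe of *Rpl36al*, a ribosome part that the name rule left out, had a difference of -0.17 (adjusted p = 0.257). Other messages of the TOP class were measured from a list of 16 genes. Of their 24 tested probes, from 13 genes, 15 rose (62.5%, against 15.8% of all tested probes) and 0 fell (against 17.3%). The median of these probes was 0.73. Genes with several probes weigh more in these values, among them *Naca*, *Eef1b2*, *Eef2* and *Pabpc1*, which rose at every tested probe. The smallest p was that of *Naca*, a subunit of the complex that guards the nascent peptide, with a rise of 0.89 ± 0.12 (adjusted p = 0.00167). The elongation factors *Eef1b2* and *Eef2* rose at every probe, by 0.84 to 1.23 and by 0.83 to 1.03. *Eef1a1*, which delivers transfer RNA to the ribosome, had differences of 0.05 (adjusted p = 0.732) and 0.06 (adjusted p = 0.737). Among the ribosomal protein genes with a promoter window, a pyrimidine run of at least 7 lay near the start in 18 of 26 (69.2%) with a probe that rose and in 8 of 16 of those tested with none, a difference that was not tested.

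Of 56 tested probes of ribosome assembly factors, 29 rose (51.8%, against 15.8% of all tested probes) and 1 fell (1.79%, against 17.3%). Their median was 0.51. Among the probes that rose, that of *Ddx21* was not well above background on any hSRY-OFF array and was detected on all 3 hSRY-ON arrays. It was at least 1.16-fold higher. It passed the detection filter only through the hSRY-ON arrays, so its call is not read as support. *Gnl3*, the nucleolar GTPase nucleostemin, had the smallest p, with a rise of 1.15 (adjusted p = 0.00135), and *Pes1*, a factor of large subunit maturation, was the one that fell (-0.69, adjusted p = 0.013). Of 12 tested probes of the RNA polymerase I machinery, 6 rose (50%, against the same 15.8%) and 0 fell, with a median of 0.55. They were led by *Taf1d*, a subunit of the promoter selectivity factor (1.35 ± 0.16, adjusted p = 0.00124). The shared subunit *Polr1d* rose at both tested probes, by 0.71 and 0.63, while *Ubtf*, which opens ribosomal DNA for transcription, had a difference of -0.07 (adjusted p = 0.694). Proteins of the mitochondrial ribosome, a separate machine for the few messages of mitochondrial DNA, had 6 of 82 tested probes higher (7.32%, against 15.8% of all tested probes), 15 lower (18.3%, against 17.3%) and a median of -0.14.

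Among genes that set the rate of ribosome synthesis, 3 of 12 tested probes rose (25%, against 15.8% of all tested probes) and 0 fell (against 17.3%). Counts on so few probes lie near those shares and are not read as a result about the list. The median was -0.26. *Myc*, a transcription factor known to drive ribosomal genes, was not well above background on any hSRY-OFF array at probe ILMN_2623526. That probe was detected on all 3 hSRY-ON arrays, at least 2.65-fold higher (means of 5.27 and 7.15). The bound sets the hSRY-OFF mean at the lowest signal of a detected probe. This probe passed the detection filter only through the hSRY-ON arrays, so its call, 1 of the 3, is not read as support. The other *Myc* probe (ILMN_1231123) was not well above background on any array. *Rheb*, the activator of mTOR, rose by 0.49 (adjusted p = 0.0131) and *Maf1*, the repressor of RNA polymerase III, by 0.68 (adjusted p = 0.021). The 4 genes of the p53 branch of ribosome surveillance gave 6 tested probes, of which 4 rose (66.7%, against the same 15.8%) and 0 fell. The cell cycle inhibitor *Cdkn1a* rose at all 3 of its probes, by 1.71 to 1.89, *Mdm2* rose at 1 of its 2 tested probes (0.59, adjusted p = 0.0308), and *Trp53* had a difference of -0.12 (adjusted p = 0.502). *Rps27l*, given above, is known as a target of the same pathway.

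**Figure D4:**
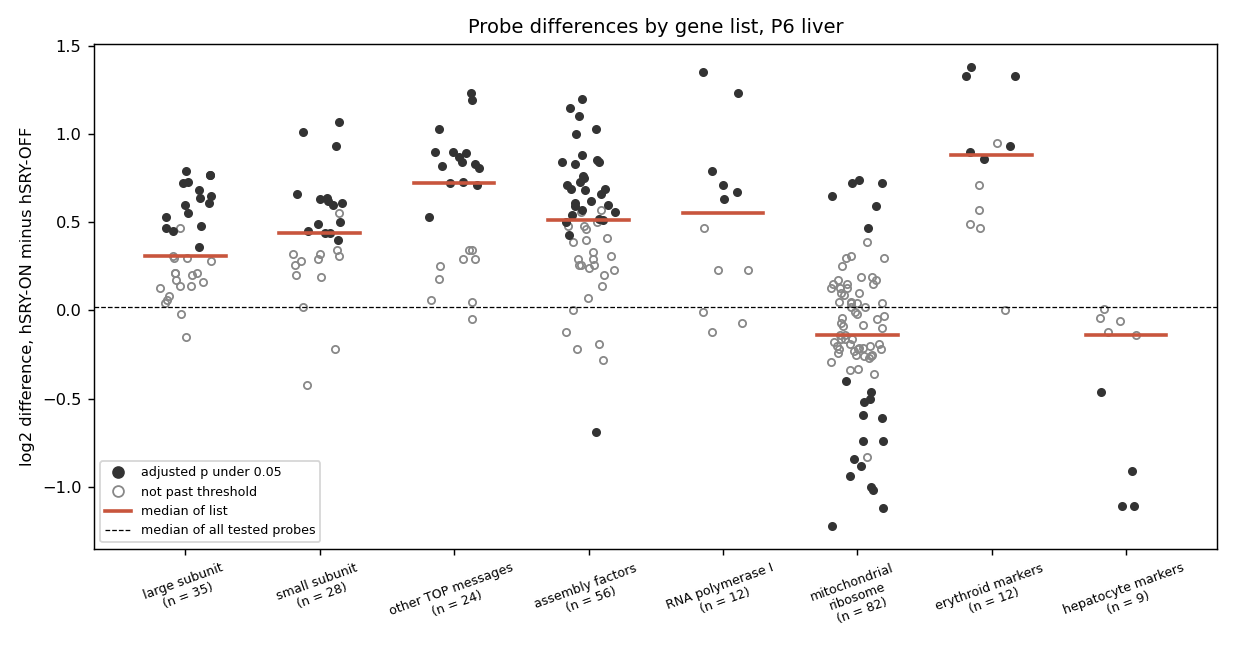
Each circle is a tested probe, placed by its log2 difference, hSRY-ON minus hSRY-OFF (y axis), in the gene lists named on the x axis, filled where the adjusted p was under 0.05. The red bar is the median of the list and the dashed line the median of all tested probes (0.02). The large (0.31) and small (0.44) subunit, other TOP messages (0.73), assembly factors (0.51), RNA polymerase I (0.55) and erythroid markers (0.88) have medians above the line, and the mitochondrial ribosome and hepatocyte markers (both -0.14) lie below it.

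Marker genes of other cells moved between the same groups, where 15.8% of all tested probes rose and 17.3% fell. The liver of a newborn mouse still makes blood, and young red cells are rich in ribosomal protein messages. Of 12 tested erythroid marker probes 6 rose and 0 fell, with a median of 0.88, led by *Alas2* (0.93, adjusted p = 0.0117) and *Rhag*. The summed erythroid signal, on the normalized linear scale, was 65066 to 85602 in hSRY-OFF and 85325 to 97288 in hSRY-ON, with 9 of 12 genes detected on at least 1 array and *Epb42* and *Rhd* among those not above background. *Hba-a1*, at 15.50 on every array, makes up a large part of that sum in both groups and hides differences of the other markers. Quantile normalization gives probes of equal rank the same value, so this does not show that its level was unchanged. Probe by probe, all hSRY-ON values lay above all hSRY-OFF values for 6 of the 12 (25.4% of all tested probes), and the groups overlapped for the other 6. The hepatocyte signal was 193343 to 197342 in hSRY-OFF and 175031 to 182759 in hSRY-ON, with 4 of 9 probes lower and 0 higher. Of the endothelial markers 4 of 8 probes rose (3656 to 4321 against 4701 to 5919, *Kdr* not above background), and of the stellate cell markers 1 rose and 2 fell of 6 (7682 to 8760 against 5197 to 5444). The macrophage markers had 1 probe higher and 4 lower of 12 (13677 to 17058 against 10815 to 13455, *Cd5l* not above background), the lymphoid markers 0 and 4 of 4 (823 to 1055 against 227 to 493, *Ptprc* not above background) and the cycling markers 0 and 1 of 8 (9873 to 12269 against 7127 to 11519). Among the falls, the stellate *Lrat* probe and macrophage *Clec4f* probe ILMN_2876653 were not well above background on any hSRY-ON array. They passed the detection filter only through the hSRY-OFF arrays, so their calls are not read as support. The neutrophil markers had 0 and 0 of 9, and their signal ran from 45335 to 52296 in the hSRY-OFF group and from 30010 to 90696 in the hSRY-ON group, highest on the array of replicate 3 (*Mmp8* not above background), and the biliary markers 0 and 0 of 1 (111 to 159 against 102 to 150, *Krt19* and *Sox9* not above background). Without hSRY-ON replicate 3, 31 ribosomal protein probes rose, 30 of them among the 31 of all arrays, and 18.1% of all tested probes rose there. Apart from these values, the part of cell composition in the rise of ribosomal protein messages was not tested.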

How the data were processed

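Labelled RNA from 6 livers was hybridised to Illumina MouseRef-8 BeadChips. The deposited table gave, for each array, a linear mean bead intensity, deposited by the authors without normalization, and beside it a deposited detection p-value. Background was removed with the nec function of limma 3.58.1 (offset 16, R 4.3.3), and intensities were then quantile normalized and put on the log2 scale. Fitted were the probes that 3 or more of the 6 arrays detected at p under 0.01 (lmFit, eBayes, no covariates, two-sided), with Benjamini-Hochberg adjustment over the 10734 tested probes and a threshold of 0.05. The study names TCC, a count package, which was not applied to intensities, and the submitters' processing notes name limma. Differences are hSRY-ON minus hSRY-OFF on the log2 scale after the offset, which shrinks those of dim probes. The arrays detected 10318 to 10762 probes, with median intensities of 147 to 165, and their number limits the precision. Slide and scan were not given in the sources used here.

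Groups and replicate numbers came from the labels. The study calls the 3 samples of each group biological replicates. Same-numbered arrays did not deviate together (r = 0.02, 0.10 and 0.05). No column was without a sample (0). Named were the 5 genes with the largest rise and fall whose groups did not overlap, probes at or below 0, genes whose probes disagreed (by over 0.5, or in their call), untested probes, a list of genes of known interest and the smallest p per direction in other lists; further genes that rose were named after their values were seen. A few of these genes are not reported here by name or value. Members and lists were chosen with earlier results of these data known. Older symbols were matched through RefSeq (2927 of 18138 symbols, 904 unmatched). The procedure was tested on simulated data. Alternatives changed the background, offset, scaling, filter, variance model, threshold, probe averaging, pairing and arrays.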

Additional observations from a re-analysis of the deposited data

Results flagged for a closer look

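*Rpl3l*, the striated muscle relative of *Rpl3*, lay outside the tested probes. Its probe (ILMN_2649810) was detected on 1 of 6 arrays, that of hSRY-ON replicate 3, with a log2 value of 6, above the highest hSRY-OFF value of 5.01, while hSRY-ON replicates 1 and 2 were not detected at 5.02 and 4.78. It was singled out because this signal stands outside the comparisons and above the controls.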

How the results depend on the processing

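No ribosomal protein probe fell under any alternative except array weights, where 1 did and 40 rose (22.2% of all tested probes rose there). Against 31 probes that rose (16 of the large and 15 of the small subunit), 16 rose under median scaling (9 and 7), 15 under trimmed mean scaling (9 and 6), 12 at an adjusted p of 0.01 (4 and 8, with 6.46% of all tested probes higher) and 10 when tested against a 1.2-fold change (4 and 6, with 7.36%). Leaving out 1 array in turn gave 14 to 31 (6 to 16 and 8 to 15), with 14 without hSRY-OFF replicate 1 or 2 and 25 or more without each of the others. The remaining alternatives gave 27 to 41. Of all tested probes, 11.2% rose under median scaling, 10.8% under trimmed mean scaling and 8.32% to 18.1% with 1 array left out. In the remaining alternatives that share ran from 6.06% (no filter) to 24% (mean log2 of at least 10). The median of 0.40 was 0.33 without background correction, 0.35 with normexp and no control information, 0.33 under median scaling, 0.31 under trimmed mean scaling, 0.30 without a filter and 0.33 to 0.43 with 1 array left out. The scalings moved the median of all tested probes to -0.04 and -0.05, and the ribosomal proteins lay 0.36 above it in both, against 0.39. The cause was not tested. With the replicate number as a block 27 probes rose (14.6% of all tested probes rose there), all among the 31, and the large and small subunit counts stayed within 1.5 times. The labels share only numbers between groups, so this says nothing of a pairing.

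For single probes named in the text, 548 results over the alternatives kept direction and side of the threshold, 35 lost the call, 24 gained one and 9 turned sign. The *Rps19* probe ILMN_2862280 lost its call in 8 of 19 alternatives (adjusted p 0.00489 to 0.106, limma; 0.0601 with the replicate block), *Rpl31* probe ILMN_3152328 in 5 and those of *Rpl3* and *Rps6* in 4 each. *Rps27l* turned to -0.13, -0.14 and -0.05 under median scaling, trimmed mean scaling and cyclic loess and ran from -0.05 (without hSRY-ON replicate 3) to 0.09 with 1 array left out. *Rpl7l1* probe ILMN_2661407 turned to -0.01 under trimmed mean scaling and ran from -0.08 (without hSRY-OFF replicate 2) to 0.11 with 1 array left out. *Rpl21* probe ILMN_2688863 turned to 0.03 without hSRY-OFF replicate 1 and to 0.12 without hSRY-ON replicate 3, and *Rpl31* probe ILMN_3073486 ran from -0.01 (without hSRY-ON replicate 2) to 0.14. Signal near background limits the dim probes, and the 17 probes that were not tested give no difference.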
